A study of Mus musculus with 4 samples.

Results

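The genes that build cholesterol and fatty acids, together with the proteins that switch them on and off, were followed in cells washed from the airspaces of wild-type and S1pr2-/- mice given bleomycin. They comprise 34 genes named by symbol, of 20802 genes with a named probe measured on every array. For a gene with several probes, the brightest was taken. By role, 8 belong to the mevalonate branch, 10 to the sterol branch, 7 are regulators and 9 make, desaturate or elongate fatty acids. RNA of bronchoalveolar lavage fluid (BALF) cells, which the sample records call alveolar macrophages, was labeled with a single dye (Cy3) and hybridized to 4 arrays of a whole mouse genome design, 2 from wild-type (WT) mice and 2 from mice lacking S1pr2, a receptor for sphingosine-1-phosphate. Per the study's methods, the S1pr2-null allele was kept on a mixed background that included C57BL/6J, with 1 further cross to that strain, the WT mice were littermates from heterozygous breeding, and bleomycin-administered mice were between 8 and 10 weeks old. Both groups had received intraperitoneal bleomycin at 0.035 U/g repeatedly, the cells were collected at day 22, and no array of saline-administered mice was analyzed here. The disruption is carried by every cell of the mouse, and the sources used here do not give how many mice contributed to an array.

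Cholesterol is assembled from acetyl-CoA. The mevalonate branch makes the isoprenoid units and squalene, and the sterol branch oxidizes, closes and trims squalene into cholesterol. SREBP transcription factors, encoded by Srebf1 and Srebf2, switch on both this pathway and fatty acid synthesis when the endoplasmic reticulum is poor in sterol, while Scap escorts them to the Golgi and Insig proteins hold them back. Alveolar macrophages take up and break down the lipid-rich surfactant of the alveolus, so that their own lipid synthesis runs beside a large supply from outside.

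Values are log2 of the background-corrected spot signal over the array's 75th percentile, so that 0 is the level of that percentile, and they were floored at 0.01 of it. Levels of different probes are not set against each other. The 75th percentile lay between 2489 and 2817 intensity units. The targeted gene was examined first: its probe read -0.13 and -0.16 in WT but 2.67 and 2.54 in the samples labelled S1pr2-/-. This went against the label, and where this probe lies relative to the disrupted part of the gene is not given in the sources used here. All directions below therefore follow the labels, and S1pr2-/- stands for the arrays labelled so. The macrophage list had 7 of 8 markers on the array, all well above background on every array, and their summed signal came to 585 to 628 times the 75th percentile in WT and to 573 to 606 times in S1pr2-/-. Of 6 eosinophil markers, 6 had no overlap between genotypes and were lower in S1pr2-/-, where 21.9% of all genes were. Their median difference was -4.10 on the log2 scale. It was smaller for Ear6 (-0.79) and for Siglecf (-0.15), which is also on the macrophage list. Epx sat at the floor on S1pr2-/- replicate 1 and was well above background on 3 arrays. In such a cell mixture, fewer cells of a type and less RNA per cell cannot be told apart, and the part of these cell types in the results below was not tested.

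By their brightest probes, the lipid synthesis genes differed between genotypes about as much as genes in general. The members that differed by more than 0.3 on the log2 scale lay in the fatty acid branch. A dimmer probe of the regulator Srebf2 also differed by more (-0.35). All 34 members passed the filter on dim probes, and 33 were well above background on all 4 arrays. The other, Fads2, passed through the S1pr2-/- arrays alone. The difference between genotypes (S1pr2-/- minus WT) had a median of 0.03 on the log2 scale over the members and 0.00 over the 15424 genes tested, and the median size of the difference, regardless of direction, was 0.11 for the members and 0.12 for all genes. It was within 0.3 of 0 for 30 of 34 members, as for 12881 of the 15424 genes. The 95% interval of limma lay wholly within a 2-fold change in either direction for 32 members, the exceptions being Sc5d and Fads2. This held for 13427 of the 15424 genes. The interval lay within a 1.5-fold change for 21 of 34 members and for 10367 of the 15424 genes. The difference itself is what the next counts describe. By mean, 21 members, Fads2 among them, were higher and 13 lower on the arrays labelled S1pr2-/-. Of all genes, 7658 were higher and 7624 lower. Over the 33 members well above background on all arrays, which leaves out Fads2, the median difference was 0.01.

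No member passed limma's test after Benjamini-Hochberg adjustment over all 27161 probes. The count of members at an adjusted p under 0.05 was 0, as it was for all genes (0%), and the members' adjusted p ran from 0.508 to 1.00. At an unadjusted p under 0.05, 2 members were higher, Scd1 and Fads1, where 4.55% of all genes were, and 0 members were lower, where 5.95% of all genes were. The methods' t-test gave Mvd beside these and 0 members after adjustment. The size of the differences depended on single arrays. With each array left out in turn, Scd1 ran from 0.49 to 0.72 and Fads1 from 0.46 to 0.67. Idi1 ran from -0.43 to -0.03 and Elovl6 from -0.50 to -0.12. With 2 arrays per genotype, an exact two-sided permutation test of a single gene cannot give a p under 0.333, so the agreement of the arrays was also read directly. Both arrays labelled S1pr2-/- lay above both WT arrays for 7 members (Mvd, Nsdhl, Dhcr7, Srebf2, Insig2, Scd1 and Fads1), which is 20.6% of the members against 22.2% of all genes. They lay below for 5 members (Idi1, Ebp, Stard4, Elovl1 and Elovl6), which is 14.7% against 21.9%, and overlapped for the other 22. The split moved with the scaling, as did that of all genes. Under quantile normalization 10 members (29.4%) lay above and 3 (8.82%) below, against 28.8% and 17.5% of all genes. With the percentile taken over detected probes it was 7 (20.6%) and 3 (8.82%), against 22.2% and 18.4%, and after normexp background correction it was 8 (23.5%) and 8 (23.5%), against 23.1% and 15.1%. With the 75th percentile scaling over all spots, for 5 members (Mvd, Nsdhl, Dhcr7, Scd1 and Fads1), or 14.7%, the difference between genotypes was larger than the gap between replicates in either genotype, and this held for 30.7% of all genes.

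**Figure D1:**
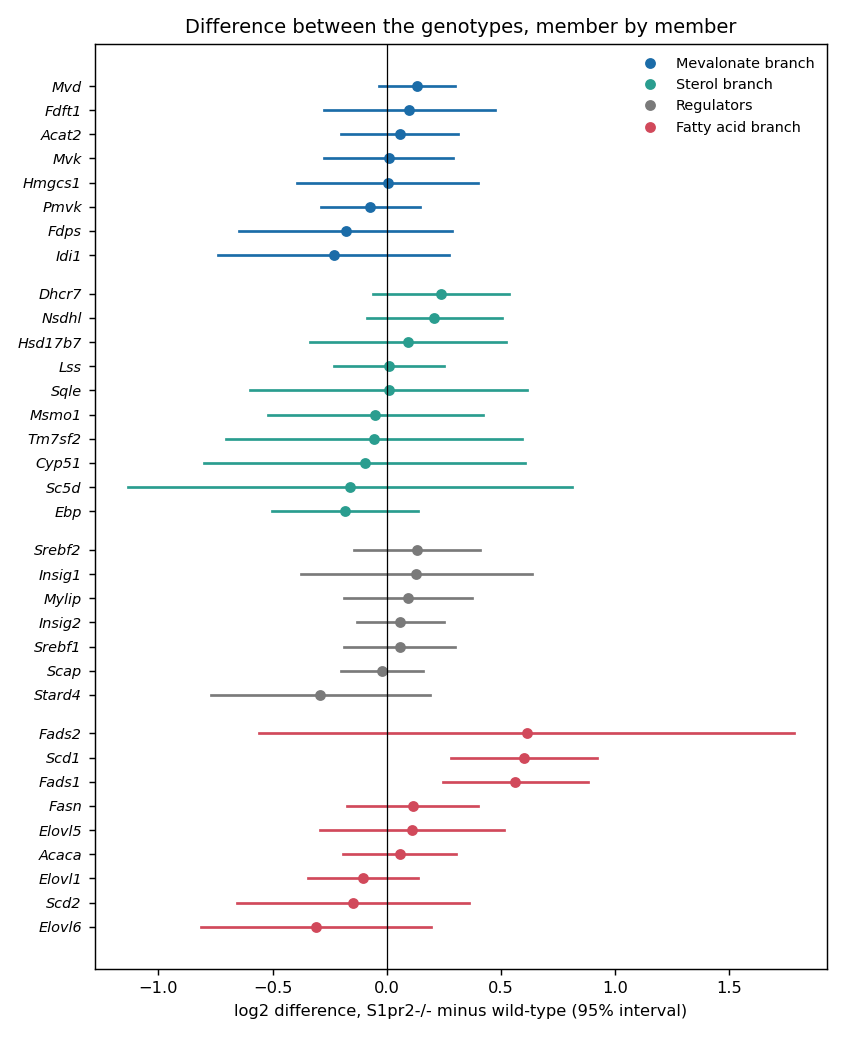
Difference between genotypes (log2, S1pr2-/- minus WT) of each of the 34 members with its 95% interval from limma, grouped by role and ordered by size within a role. Scd1 and Fads1 are the members whose intervals leave out 0, and Fads2 and Sc5d have the widest intervals.

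The fatty acid branch held the members with the largest differences. Scd1, the stearoyl-CoA desaturase that puts the double bond into saturated fatty acids, gave 1.38 and 1.61 in WT and 2.12 and 2.08 in S1pr2-/-. Both S1pr2-/- arrays lay above both WT arrays, and the pair of arrays labelled S1pr2-/- was closer together than the WT pair. The SD was 0.16 in WT and 0.03 in S1pr2-/- (n = 2 each), and the difference was 0.60 (SE 0.11), or 1.52-fold, with a 95% interval from 0.28 to 0.92 and an adjusted p of 0.508 from limma. Fads1, the desaturase that completes arachidonic acid from its precursor, gave -1.56 and -1.76 in WT and -1.05 and -1.15 in S1pr2-/-. The groups again did not overlap. The difference was 0.56 (SE 0.10; 95% interval 0.25 to 0.88), or 1.48-fold, with an adjusted p of 0.508. Leaving out S1pr2-/- replicate 1 gave 0.58 for Scd1 and 0.51 for Fads1 with unadjusted p of 0.0601 and 0.0644 from limma, and leaving out S1pr2-/- replicate 2 gave 0.62 for Scd1 with a p of 0.0537.

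The other desaturases were less precise or overlapped. Fads2, which acts before Fads1 on the same fatty acids, was dim. WT replicate 1 was not well above background and sat at the floor of -6.64, while the other arrays gave -6.08 (WT), -6.15 and -5.35 (S1pr2-/-). Its difference of 0.61 was near those of Scd1 and Fads1, but it was measured against an array at the floor and had a 95% interval from -0.56 to 1.78. It was 0.21 without S1pr2-/- replicate 2, 1.24 after normexp background correction and 0.00 with the percentile over detected probes. Scd2, a second stearoyl-CoA desaturase, gave 3.15 and 3.51 in WT and 3.28 and 3.09 in S1pr2-/-, with overlap and a difference of -0.15. Alveolar type 2 cells, which make surfactant lipid, are known to express genes of this branch as well. All 6 markers of these cells were well above background on every array. Of them, 5 were lower on both arrays labelled S1pr2-/-, where 21.9% of all genes were, and Abca3 was not (0.10). The summed signal of the 6 was between 25.9 and 30.3 times the 75th percentile in WT and between 23.9 and 25.6 in S1pr2-/-. The part of these cells in the values of Scd1 and Fads1 was not tested. The surfactant gene Sftpc gave 3.18 and 2.89 in WT and 2.80 and 2.58 in S1pr2-/-.

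The enzymes that start and lengthen fatty acids differed less. Fasn, the synthase that builds palmitate, gave -2.67 and -2.82 in WT and -2.57 and -2.70 in S1pr2-/-, with overlap and a difference of 0.11 (95% interval -0.17 to 0.40). Acaca, which supplies it with malonyl-CoA, gave 2.54 and 2.50 in WT and 2.65 and 2.50 in S1pr2-/-, a difference of 0.06. Elovl6, which lengthens palmitate to stearate, lay lower on both arrays labelled S1pr2-/-: it gave -0.26 and -0.36 in WT and -0.42 and -0.81 in S1pr2-/-. Its difference was -0.31 (SE 0.17; 95% interval -0.81 to 0.19; adjusted p = 0.603 from limma), and most of it came from S1pr2-/- replicate 2, since it was -0.12 without that array. Elovl1 and Elovl5, which act on longer chains, differed by -0.10 and 0.11.

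**Figure D2:**
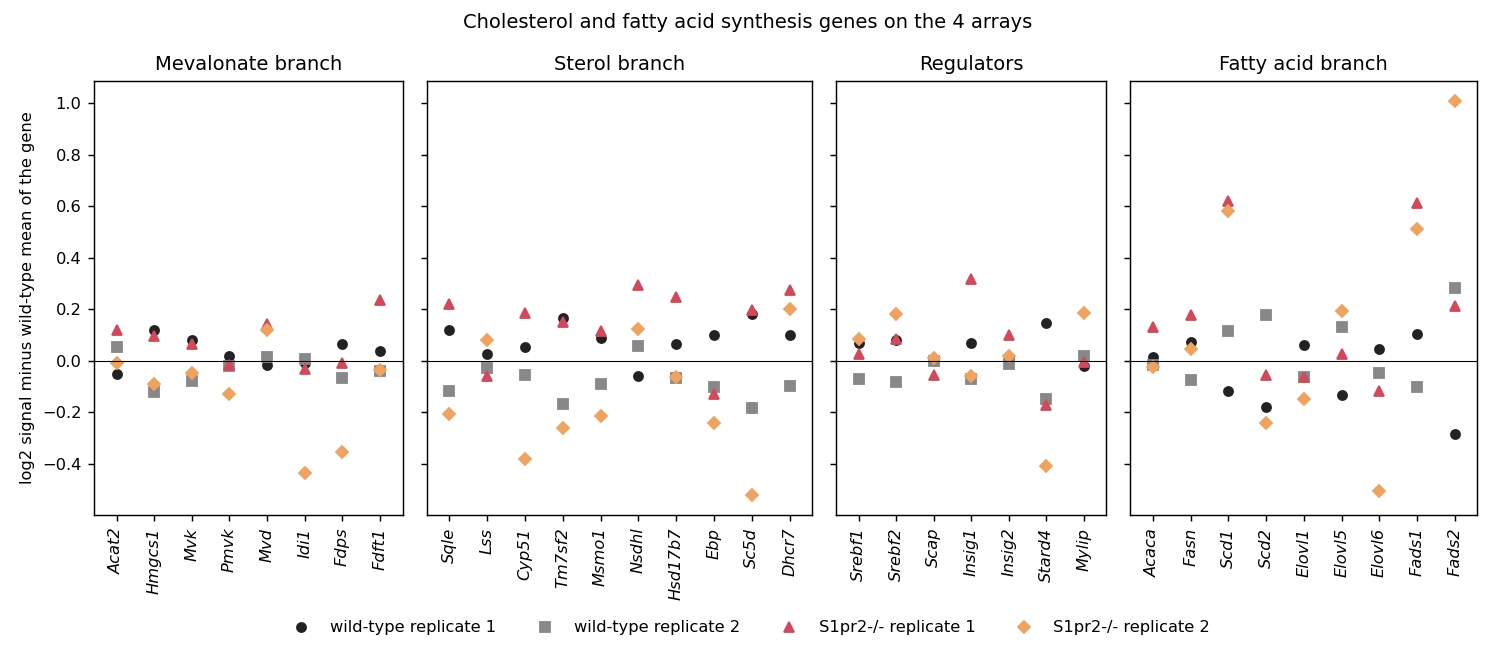
Log2 signal of the 34 members on each of the 4 arrays, minus the mean of the gene's WT arrays, with 1 symbol per array. The arrays labelled S1pr2-/- sit at 0.62 and 0.58 for Scd1 and at 0.61 and 0.51 for Fads1, while S1pr2-/- replicate 2 is the lowest array for several genes of the sterol branch.

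In the mevalonate branch the differences ran from -0.23 to 0.13, and 2 of 8 members did not overlap between genotypes. Idi1, the isomerase that interconverts the isoprenoid building blocks, gave 3.23 and 3.25 in WT and 3.21 and 2.81 in S1pr2-/-. The WT arrays and S1pr2-/- replicate 1 lay close together, so that the difference of -0.23 (95% interval -0.74 to 0.27) rested on S1pr2-/- replicate 2 and was -0.03 without it. Fdps, which joins these units into farnesyl pyrophosphate, gave 3.65 and 3.52 in WT and 3.58 and 3.23 in S1pr2-/-, with overlap and a difference of -0.18, or -0.01 without S1pr2-/- replicate 2. Mvd, the decarboxylase that makes the first isoprenoid unit, was 1.77 and 1.80 in WT and 1.93 and 1.90 in S1pr2-/-, a difference of 0.13 (95% interval -0.03 to 0.30). Hmgcs1, which makes HMG-CoA at the entry of the pathway, gave 4.17 and 3.93 in WT and 4.15 and 3.96 in S1pr2-/-, a difference of 0.00 (95% interval -0.39 to 0.40). Acat2, Mvk, Pmvk and Fdft1 differed by between -0.07 and 0.10.

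In the sterol branch the differences ran from -0.18 to 0.24. Dhcr7, which carries out a late reduction on the way to cholesterol, gave 0.10 and -0.10 in WT and 0.27 and 0.20 in S1pr2-/-, without overlap and with a difference of 0.24 (95% interval -0.06 to 0.54; adjusted p = 0.549 from limma). Nsdhl, which helps to remove methyl groups from lanosterol derivatives, gave -0.35 and -0.24 in WT and 0.00 and -0.17 in S1pr2-/-, a difference of 0.21 (95% interval -0.09 to 0.50). Ebp, the sterol isomerase, lay the other way, with 4.70 and 4.50 in WT, 4.47 and 4.36 in S1pr2-/- and a difference of -0.18 (95% interval -0.50 to 0.14). Sqle, the squalene epoxidase and a rate-limiting step of the branch, gave 3.06 and 2.82 in WT and 3.17 and 2.74 in S1pr2-/-. The arrays labelled S1pr2-/- lay on either side of the WT arrays, and the difference was 0.01 (95% interval -0.60 to 0.61). Sc5d, a desaturase of the ring, spread in the same way, with 1.62 and 1.25 in WT and 1.63 and 0.92 in S1pr2-/-, a difference of -0.16 and an interval from -1.13 to 0.81. Lss, Cyp51, Tm7sf2, Msmo1 and Hsd17b7 differed by between -0.10 and 0.09, and all 5 overlapped between genotypes.

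Genes of the sterol pathway also differed together between arrays of the same genotype. Of the 18 genes of the mevalonate and sterol branches, 17 (94.4%) were lower on S1pr2-/- replicate 2 than on S1pr2-/- replicate 1, where 45% of all genes were, and the exception was Lss, the cyclase that closes the sterol rings. The median gap over the 18 genes was -0.23 on the log2 scale, against 0.01 over all genes. Such a gap was not particular to these 18 genes. Of the fatty acid branch, 7 of 9 (77.8%) were also lower on S1pr2-/- replicate 2, with a median gap of -0.10. So were 9 of 12 neighbouring enzymes described below (75%), with a median gap of -0.07. Of the regulators 3 of 7 (42.9%) were lower, and of the export and storage genes described below 4 of 12 (33.3%). Among the 18 genes, the gap was widest for Sc5d (-0.72), Cyp51 (-0.57), Sqle (-0.43), Tm7sf2 (-0.41) and Idi1 (-0.40). Fdps (-0.35) and Msmo1 (-0.33) followed. Cyp51, the demethylase of lanosterol, gave -0.51 and -1.08 on these arrays beside -0.65 and -0.76 on the WT arrays. Between the WT arrays, 14 of the 18 (77.8%) were lower on replicate 2, where 53.7% of all genes were, with a median gap of -0.13. Of the regulators, 6 of 7 (85.7%) were lower there, and of the fatty acid branch 5 of 9 (55.6%). For the 18 genes, the counts were 17 and 14 under quantile and cyclic loess normalization. They were 13 and 12 after normexp background correction, where 61.0% and 51.1% of all genes were lower. The numbers only name the arrays, and the genes share their arrays, so these counts are a description. Other cells also differed between the arrays labelled S1pr2-/-: the summed signal of 4 airway epithelium markers was 11.9 on replicate 1 and 28.9 on replicate 2, that of 6 T cell markers 14.8 and 10.9, and that of 5 cycling cell markers 8.97 and 13.4, and their part in the gap was not tested.

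**Figure D3:**
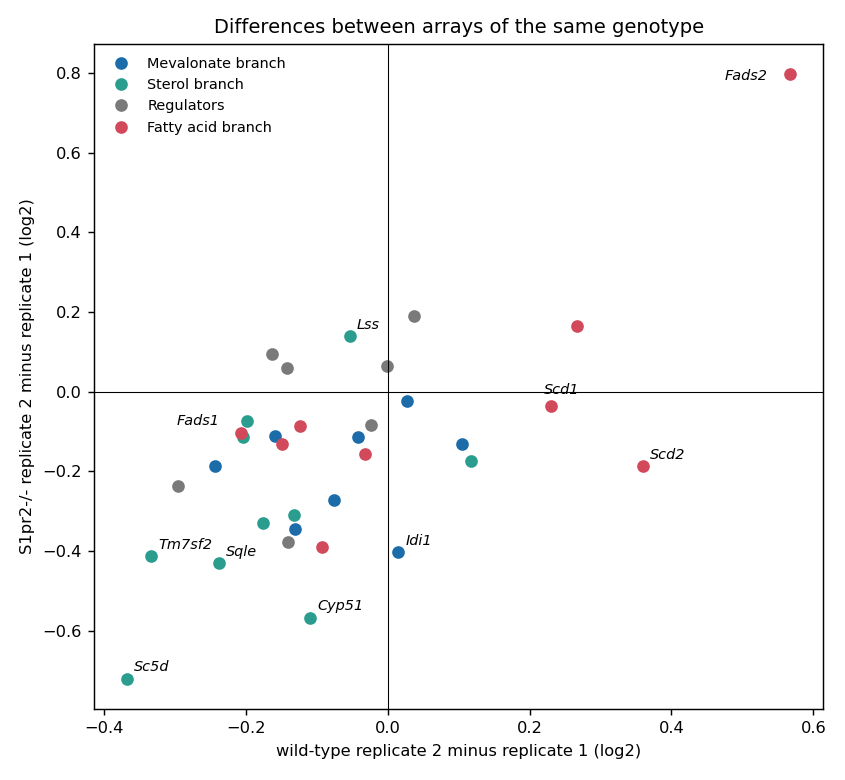
Difference between replicate 2 and replicate 1 (log2) of each of the 34 members, for the WT arrays on the horizontal axis and for the arrays labelled S1pr2-/- on the vertical axis, colored by role. Of the 18 mevalonate and sterol branch genes, 17 lie below 0 on the vertical axis and 14 lie left of 0 on the horizontal axis, while Fads2 and Scd2 lie farthest to the right.

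Because these genes lay lower together on the same array, their promoters were read for the letters that sterol control is known for. SREBPs bind a sterol regulatory element, and NF-Y, which binds the CCAAT box, is their usual partner. In RefSeq sequence of GRCm38.p6, from 250 bases before to 50 bases after each start, 27 of the 34 members had a promoter entry, and those not matched were Fdps, Fdft1, Sqle, Stard4, Scd1, Scd2 and Fads1. A CCAAT box on either strand was found for 22 of the 27 (81.5%) and for 41.1% of 27025 genes, and for 14 of the 15 matched sterol pathway genes. The element written TCACNCCAC was found for 1 member, Hmgcs1, and for 1.44% of genes. The 150 bases before the start are shown, on the strand of the gene and 5′ to 3′, for the 5 matched genes with the widest gap between the arrays labelled S1pr2-/- and for Hmgcs1, with both motifs in capitals. On the strand shown, a CCAAT box of the other strand reads ATTGG.
Sc5d (chr9:42264301-42264450, minus strand): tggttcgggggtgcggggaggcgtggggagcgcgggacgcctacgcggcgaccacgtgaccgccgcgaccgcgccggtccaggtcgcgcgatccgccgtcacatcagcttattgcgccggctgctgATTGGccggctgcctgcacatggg
Cyp51 (chr5:4104698-4104847, minus strand): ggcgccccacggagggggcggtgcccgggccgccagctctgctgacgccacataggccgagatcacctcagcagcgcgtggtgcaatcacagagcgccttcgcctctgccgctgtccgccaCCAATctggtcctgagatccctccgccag
Tm7sf2 (chr19:6067851-6068000, minus strand): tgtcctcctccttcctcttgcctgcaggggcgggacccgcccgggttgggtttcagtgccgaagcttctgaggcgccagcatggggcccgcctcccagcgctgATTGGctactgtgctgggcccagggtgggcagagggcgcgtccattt
Idi1 (chr13:8885456-8885605, plus strand): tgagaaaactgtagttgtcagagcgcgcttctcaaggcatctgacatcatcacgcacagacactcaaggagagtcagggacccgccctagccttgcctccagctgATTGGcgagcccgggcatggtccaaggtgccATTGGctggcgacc
Msmo1 (chr8:64733579-64733728, minus strand): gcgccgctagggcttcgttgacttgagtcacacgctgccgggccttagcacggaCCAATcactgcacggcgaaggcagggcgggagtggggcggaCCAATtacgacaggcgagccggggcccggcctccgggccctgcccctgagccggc
Hmgcs1 (chr13:119690201-119690350, plus strand): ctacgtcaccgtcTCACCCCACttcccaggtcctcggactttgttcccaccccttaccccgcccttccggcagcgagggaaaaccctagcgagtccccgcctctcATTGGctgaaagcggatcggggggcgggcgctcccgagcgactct
All 6 stretches hold at least 1 CCAAT box, and Idi1 and Msmo1 hold 2. The promoter of Lss, the exception to the shared gap (0.14), also held 1 CCAAT box. That of Acat2, which shared the gap (-0.13), held 0. Among the regulators, a CCAAT box was found for Srebf1, Srebf2, Insig1, Insig2 and Mylip and not for Scap. Of those with the box, Srebf1 (0.06), Srebf2 (0.09) and Mylip (0.19) were higher on S1pr2-/- replicate 2 than on replicate 1. Insig1 (-0.38) and Insig2 (-0.08) were lower, and Scap differed by 0.07. Whether these boxes had a part in the gap was not tested. A match of letters is not a measured site, and binding was not measured here.

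The regulators differed little by their brightest probes. Srebf2, the SREBP that favors the cholesterol genes, gave 1.89 and 1.73 in WT and 1.90 and 1.99 in S1pr2-/-, barely without overlap, and a difference of 0.13 (95% interval -0.14 to 0.41). Srebf1, which favors the fatty acid genes, gave -1.35 and -1.49 in WT and -1.39 and -1.33 in S1pr2-/-, a difference of 0.06 (95% interval -0.19 to 0.30). Scap, their escort, was the steadiest, with 3.08 on both WT arrays and 3.03 and 3.09 in S1pr2-/-. For the proteins that hold SREBPs back, the groups overlapped for Insig1 and lay close together for Insig2. Insig1 gave -1.57 and -1.71 in WT and -1.32 and -1.70 in S1pr2-/-, a difference of 0.13. Insig2 gave 1.00 and 0.97 in WT and 1.09 and 1.00 in S1pr2-/-, a difference of 0.06. Stard4, a cytosolic carrier of sterol, had the largest difference of the regulators. It gave 1.19 and 0.90 in WT and 0.87 and 0.64 in S1pr2-/-, without overlap, a difference of -0.29 (SE 0.16; 95% interval -0.77 to 0.19; adjusted p = 0.606 from limma). Mylip, a ubiquitin ligase that removes lipoprotein receptors, gave 1.66 and 1.70 in WT and 1.68 and 1.87 in S1pr2-/-, a difference of 0.09.

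Several of these genes were read by more than 1 probe, and the probes did not always run the same way. The 34 members had 47 probes, of which all 47 were tested. Among the 12 members with several probes, the differences had the same sign for 6 and not for the other 6. For Srebf2, the dimmer probe gave -0.44 and -0.49 in WT and -0.87 and -0.75 in S1pr2-/-, a difference of -0.35 (95% interval -0.57 to -0.13; unadjusted p = 0.015, adjusted p = 0.508 from limma), opposite to the brightest probe and without overlap. For Mvk, a kinase of the mevalonate branch, the dimmer probe gave 0.41 on both WT arrays and 0.60 and 0.67 in S1pr2-/-. Its difference was 0.23 (95% interval 0.05 to 0.41; unadjusted p = 0.026, adjusted p = 0.513 from limma), beside 0.01 for the brightest. The dimmer probes of Acaca gave 0.25 and 0.45 beside 0.06, and that of Elovl1 gave 0.19 beside -0.10. The dimmer probe of Insig2 gave -0.14 beside 0.06, and those of Tm7sf2, Nsdhl and Hsd17b7 gave 0.05, -0.01 and -0.05. The direction of Elovl1, Insig2, Tm7sf2, Nsdhl, Hsd17b7 and Srebf2 therefore depended on the probe, while that of Mvk and Acaca did not.

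**Figure D4:**
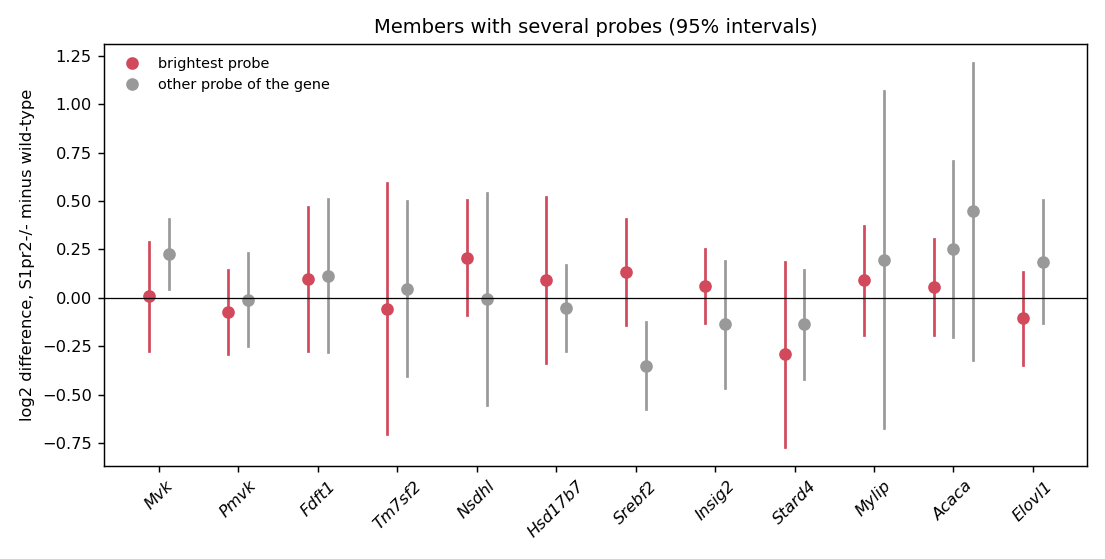
Difference between genotypes (log2, S1pr2-/- minus WT) with its 95% interval from limma for each probe of the 12 members that have more than 1. The probes of Srebf2 lie on opposite sides of 0 (0.13 and -0.35), and dimmer probes of Acaca and Mylip have the widest intervals.

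Genes next to the pathway were read from lists of the same kind. Of the neighbouring enzymes, 12 of 13 were tested, of which 10 had a lower and 2 a higher mean on the arrays labelled S1pr2-/-. Of all genes, 7624 had a lower and 7658 a higher mean. Both arrays labelled S1pr2-/- lay below both WT arrays for 3 of the 12 (25%) and above for 2 (16.7%). The shares of all genes were 21.9% and 22.2%. At an unadjusted p under 0.05 from limma, Mbtps2, a protease that releases SREBPs from the membrane, was higher with a difference of 0.32 (adjusted p = 0.508), Tecr, a reductase of fatty acid elongation, was higher with 0.20, and Fads3, a desaturase relative of Fads1, was lower with -0.42 (adjusted p = 0.518). Fads3 gave -0.67 and -0.72 in WT and -0.96 and -1.27 in S1pr2-/-, opposite in direction to Fads1. Of the genes of LXR, the sterol-sensing receptors, and of cholesterol export and storage, 12 of 12 were tested and 10 had a higher mean. Both arrays labelled S1pr2-/- lay above both WT arrays for 7 of the 12 (58.3%), where they did so for 22.2% of all genes. This count was 8 with cyclic loess, 9 with quantile normalization, 9 with the percentile over detected probes and 3 after normexp background correction, where the shares of all genes were 23.7%, 28.8%, 22.2% and 23.1%. Npc2 and Npc1, which carry cholesterol out of lysosomes, differed by 0.19 (adjusted p = 0.517) and 0.22 (adjusted p = 0.518), Cyp27a1, which makes an oxysterol, by 0.39, and Soat1, which esterifies cholesterol, by 0.31. Ch25h, the other oxysterol enzyme of the list, differed by -0.40, with 2.69 and 2.45 in WT and 2.42 and 1.91 in S1pr2-/-. None of these 24 genes passed limma's adjusted threshold. The exporters that LXR is known to switch on, Abca1 and Abcg1, differed by 0.10 and -0.04, and both overlapped.

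**Figure D5:**
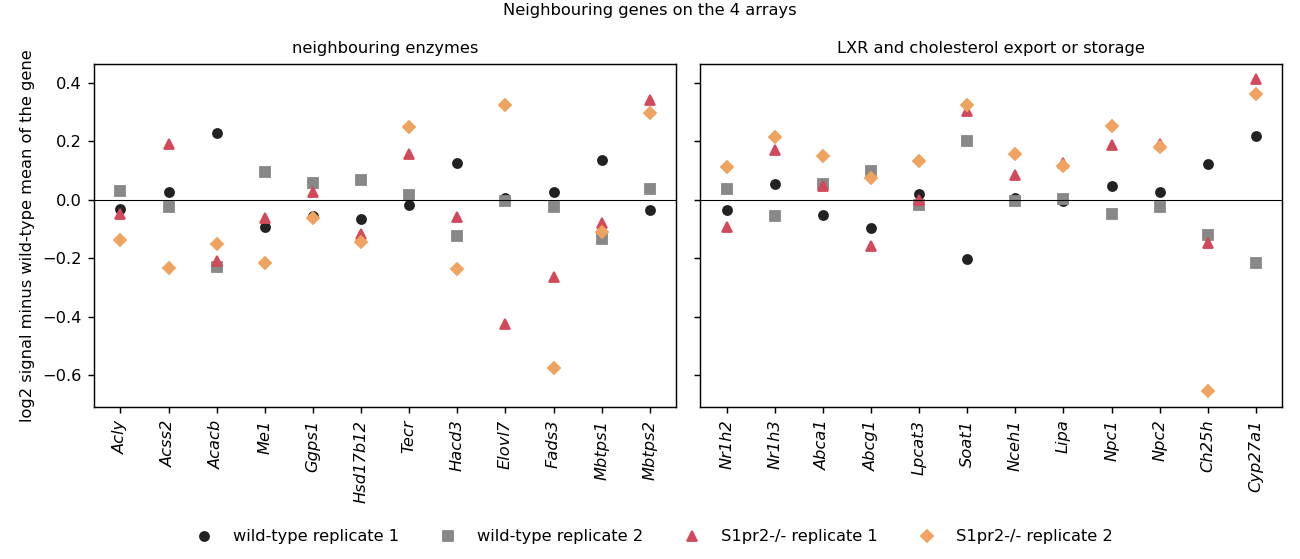
Log2 signal on each of the 4 arrays, minus the mean of the gene's WT arrays, for 12 neighbouring enzymes (left) and 12 genes of LXR and cholesterol export or storage (right). Both arrays labelled S1pr2-/- lie above both WT arrays for 7 of the genes on the right, and Fads3, Ch25h and Elovl7 show the values farthest from 0.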

How the data were processed

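BALF cells of 2 WT and 2 S1pr2-/- samples were measured on 4 one-color arrays of 1 slide scanned in 1 run, so no batch could be tested. Per the study's methods these were independent RNA samples. Whether they came from separate mice is not given in the sources used here, so p-values measure the spread between these samples, which may be technical. The authors deposited each spot's intensity from Feature Extraction (version 10.7.3.1 in the submitters' processing notes, 11.0.1.1 in the file headers), with the background corrected, and a table of their normalized log2 values, which was used as an alternative only. Its column medians lay between -0.058 and 0.023, and it followed the log2 values computed here, with the WT middle removed, within 0.01 for 99.6% of probes.

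Processed intensities were divided by the 75th percentile of the array's non-control spots, floored at 0.01 and put on the log2 scale. Between 115 and 273 spots per array with an outlier flag were left out, 0 were saturated, and replicate spots were averaged. The test took the 27161 of 39429 probes that every array measured and that were well above background in both samples of a genotype. Names came from RefSeq GRCm38.p6 by accession, for 69.6% of probes. limma 3.58.1 (R 4.3.3; lmFit, eBayes, Benjamini-Hochberg over all probes) tested S1pr2-/- minus WT, and the script was tested on simulated data. The number of arrays limits the precision.

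Members, lists and rules were chosen with earlier results of these data known. Values on every array are given for the 10 members well above background on all arrays with the largest differences, members at an unadjusted p under 0.05, the regulators, Sqle, Fasn, Acaca and Scd1. Hmgcs1, Mvd, Fads2, Scd2, Cyp51, Fads3 and Ch25h and the dimmer probes of Srebf2 and Mvk were added after their values were seen. Alternatives were 4 other normalizations or background corrections, the authors' table, the floor, filter, flags, variance, a replicate block, the methods' t-test, the mean of a gene's probes and leaving out each array. Those for replicate gaps and export genes were chosen after seeing the data. Normexp used the median spot signal because no mean signal was in the files.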

Additional observations from a re-analysis of the deposited data

How the results depend on the processing

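In all 17 alternatives, 0 members passed limma's adjusted threshold, and the lowest adjusted p of a member was 0.353. Scd1 ranged from 0.58 to 0.62 and Fads1 from 0.56 to 0.64 over the 13 alternatives with all arrays, and from 0.49 to 0.72 and from 0.46 to 0.67 with an array left out.

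The count of members below both WT arrays, 5 in the report, was 3 with cyclic loess, 3 with quantile normalization, 3 when detected probes set the percentile, and 8 under normexp. These are 8.82%, 8.82%, 8.82% and 23.5% of the members, against 21.9%, 17.5%, 18.4% and 15.1% of all genes, so that the members' share was above that of all genes under normexp. Normexp also left 3 of 12 export and storage genes above both WT arrays and moved the median difference of all probes to 0.19. The cause was not tested. The direction turned with the mean of a gene's probes for Srebf2 (-0.11), Insig2 (-0.0387) and Elovl1 (0.0415), and under normexp for Hmgcs1 (-0.0856), Mvk (-0.0765), Sqle (-0.11) and Acaca (-0.0400).

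With an array left out, from 6 to 14 members lay below and from 11 to 17 above the WT arrays, where fewer arrays make overlap less likely. The median difference ran from -0.04 to 0.11. The shares of all genes below and above the WT arrays are not given for these fits. Whether the members' counts differ from those shares was therefore not tested. In each fit, a lone array was assumed to vary like the other genotype. Without S1pr2-/- replicate 1, 9 members turned direction, without S1pr2-/- replicate 2, 6, without WT replicate 1, 4, and without WT replicate 2, 6. Over all alternatives, 13 members never turned, Fads2 among them although it reached 0.00. Those that turned ran over the 4 fits from lowest to highest as follows: Acat2 -0.00966 to 0.12, Hmgcs1 -0.12 to 0.13, Mvk -0.0707 to 0.0881, Fdft1 -0.037 to 0.24, Sqle -0.21 to 0.22, Hsd17b7 -0.0607 to 0.25, Scap -0.0541 to 0.0112, Insig1 -0.0604 to 0.32, Acaca -0.0219 to 0.13, Lss -0.0600 to 0.0797, Cyp51 -0.38 to 0.19, Tm7sf2 -0.26 to 0.15, Msmo1 -0.21 to 0.12, Sc5d -0.52 to 0.20, Mylip -0.00363 to 0.19, Elovl5 -0.0225 to 0.24, Srebf1 -0.0145 to 0.13 and Scd2 -0.33 to 0.0311.

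With the replicate number as a block, 1 member was lower at an unadjusted p under 0.05, Stard4 (-0.29), and Scd1 and Fads1 were higher, all at an adjusted p of 0.529. Fads2, with a WT array at the floor, is not read as a call. The deviations of same-numbered arrays correlated at 0.19 over 2 pairs, and the arrays share only a number. With 2 arrays per genotype, differences the size of those of Scd1 and Fads1 did not pass the adjusted threshold.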

Other observations

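Markers of further cell types were also read, as signals summed over a list and given in multiples of the array's 75th percentile. The T cell markers, 6 of 6 well above background on every array, summed to 16.4 and 17.7 in WT and to 14.8 and 10.9 in S1pr2-/-. Of the 6, 3 (Cd3d, Cd8a and Lck) were lower on both arrays labelled S1pr2-/-, where 21.9% of all genes were. Neutrophil markers summed to 35.7 and 50.7 in WT and to 31.5 and 22.2 in S1pr2-/-. Of these, Ngp did not rise well above background anywhere. Of the 7 tested, 3 (S100a9, Retnlg and Cxcr2) were lower on both arrays labelled S1pr2-/-, against 21.9% of all genes. The median difference over the 7 was -0.11 on the log2 scale, but the list was split. Retnlg (-4.81), S100a9 (-1.46) and Cxcr2 (-0.59) were lower, and S100a8 (0.25) and Ltf (0.36) had a higher mean. Mpo and Camp differed by -0.07 and -0.11. The 4 B cell markers stood apart on WT replicate 1, where they summed to 1.59, against 0.491 on WT replicate 2 and 0.624 and 0.421 in S1pr2-/-. The erythroid markers, 3 of 4 on the array, summed to 19.2 and 11.4 in WT and to 19.6 and 22.3 in S1pr2-/-.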
